A study of Homo sapiens with 16 samples.

Results

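CSMD1, C10orf26, CACNA1C, TCF4 and ZNF804A, which lie at or near loci associated with schizophrenia, and SYT1, CPLX1 and NSF, which act in the release of neurotransmitter, were followed across the read counts of a miR-137 transfection experiment. The 8 genes were picked by name, as genes that had been linked to schizophrenia or to the presynaptic terminal and discussed as targets of this miRNA, and the rule that picks them uses no measured value, though it was written with earlier results of these data known. They are 8 of the 20314 genes in the U251 tables and of the 20626 genes in the U343 tables. The cells were U251 and U343, established human lines grown from glioblastoma, and in both lines 1 group received a miR-137 mimic and the other a control mimic, each at 25 nM for 48 hours. Total RNA was sequenced directly (RNASeq), and RNA that a mix of antibodies pulled down with PABP, the protein that binds poly(A) tails, was sequenced apart (RIPSeq). This gave 4 experiments, with 2 control and 2 miR-137 libraries in each and 16 libraries in all. All groups share the ribosomal RNA depletion and Nextera library steps, but the cDNA of U251 was made with random hexamers and EpiScript and that of U343 with TotalScript, so the cell line and the cDNA chemistry cannot be told apart. The labels do not say whether the 2 libraries of a group came from separate cultures, so the p-values measure only the spread between these libraries, which may be technical.

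A miRNA guides the silencing complex to mRNAs that pair with its seed, near its 5′ end, and the mRNA is then read less often into protein, loses its poly(A) tail and decays. PABP coats the poly(A) tail, so a silenced mRNA may be less abundant in total RNA, in PABP-bound RNA or in both. miR-137 is abundant in brain, where it is known for its part in neuronal differentiation and in synapses, and the locus of its own gene is associated with schizophrenia. At the presynaptic terminal, SNARE proteins on the vesicle and on the plasma membrane zip together, complexin holds the complex ready, synaptotagmin senses the calcium that enters through voltage-gated channels, and NSF takes the spent complexes apart. Glioma cells are not neurons, and the levels below are those of glioma lines that received an added miRNA.

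The mature miRNA is shown because its seed defines which mRNA stretches it can pair with. The sequence is that of RefSeq, written 5′ to 3′, with bases 2 to 8, the seed, in capitals. It lies on the minus strand of GRCh38.p14 at chr1:98046091-98046113, inside the MIR137 gene.
hsa-miR-137-3p: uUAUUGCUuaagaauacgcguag
The stretch of mRNA that pairs with this seed reads AGCAAUA. Of the 2370 mature human miRNAs in the table used, 1 has this seed, miR-137 itself. The MIR137 gene held 0 to 5 reads in each library, control or miR-137, so the counts do not show the mimic.

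Before the genes, 3 facts about the libraries bear on their values. The summed level of 12 interferon-stimulated genes (IFIT1, MX1 and others, which cells switch on in antiviral responses) was between 204.4 and 296 CPM (reads scaled to a common library size with TMM factors) in the 8 control libraries and between 11590 and 14740 CPM in 7 of the 8 miR-137 libraries. The exception was miR-137 replicate 1 of U343 RNASeq, at 266.2 CPM, where replicate 2 had 13060 CPM. All 12 were called higher in U251 RNASeq, 11 in each RIPSeq experiment and 0 in U343 RNASeq. The 2 control libraries of U251 RIPSeq also stood apart from each other, with a median absolute log2 ratio over genes of 0.647, where the pairs of replicates of the other groups had 0.064 to 0.211. For the 8 genes, the changes with miR-137 in these experiments are given with and without these libraries, and the named genes of the other lists are given in a paragraph of their own further on. Total counted reads per library ranged from 10156675 to 18224061 in U251 RNASeq, 22359794 to 30731476 in U251 RIPSeq, 37952273 to 45134766 in U343 RNASeq and 37736206 to 45055184 in U343 RIPSeq.

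The lines carried some markers of glioma cells and astrocytes and hardly held others. In control total RNA, CD44 and SOX2 had 3589 and 110.8 CPM in U251 and 825.2 and 600.7 CPM in U343. ALDH1L1 had at most 0.149 CPM in any group, and AQP4 had 0 reads in the U251 RNASeq controls. VIM, which encodes the filament protein vimentin, had group means of 3594 to 8907 CPM, and GFAP, the astrocyte filament, was high in control total RNA of U343 (4599 CPM) and low in that of U251 (32.0 CPM). Some neuronal markers were scarce and others were not: SLC17A7, the vesicular glutamate transporter, had at most 0.504 CPM in any group, and SLC17A6, a second such transporter, at most 0.293 CPM. The summed neuronal markers (9 genes in the U251 tables, 10 in those of U343) moved with the mimic, from 54.7 to 56.3 CPM in the U251 RIPSeq controls to 138.9 and 139.9 CPM with miR-137, and from 678.8 and 820.4 CPM in the U343 RNASeq controls to 1139 and 1255 CPM. In U343 RIPSeq they went from between 846.6 and 905.5 CPM to between 976.3 and 1336 CPM, and in U251 RNASeq from between 89.7 and 93.8 CPM to between 99.2 and 124.6 CPM. Most of the sum was the microtubule gene MAP2 and the enzyme gene GAD1 in U251 and the tubulin gene TUBB3 in U343. In U251 the group means were 23.8 to 99.2 CPM for MAP2 and 23.5 to 35.3 CPM for GAD1. For TUBB3 in U343 they were 708.3 to 1106 CPM. ELAVL4, which encodes a neuronal RNA-binding protein, was at 0 reads in the U251 RNASeq controls and at most 0.15 CPM in any group. Of the neuronal markers, edgeR called 0, 0, 2 and 1 higher of 2, 4, 4 and 4 tested in U251 RNASeq, U251 RIPSeq, U343 RNASeq and U343 RIPSeq and none lower. Of the 9 glioma and astrocyte markers, edgeR called 6 lower of 7 tested in U251 RNASeq, 0 of 8 in U251 RIPSeq, 2 higher of 8 in U343 RNASeq and 2 lower and 2 higher of 8 in U343 RIPSeq. Of the 4 oligodendrocyte markers, at most 2 were high enough to test and their sums stayed at or under 6.154 CPM, the 4 leukocyte and microglia markers summed to at most 3.775 CPM and the 5 endothelial markers to at most 39.3 CPM. Of the oligodendrocyte markers edgeR called 1 higher in U343 RNASeq and 2 in U343 RIPSeq, of the leukocyte markers 1 higher in U251 RNASeq and 1 lower in U343 RIPSeq, and of the endothelial markers 1 higher in U343 RNASeq and 1 lower and 1 higher in U343 RIPSeq. These counts stand beside the shares of all genes tested. In U251 RNASeq 29.0% were called lower and 28.7% higher, and in U251 RIPSeq 0.263% and 0.944%. In U343 RNASeq these shares were 11.7% and 8.31%, and in U343 RIPSeq 27.8% and 28.5%. With so few genes a list, nothing particular to a marker list is read from the counts. What part the marker lists have in the results below was not tested.

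In all 16 pairings of a miR-137 library with a control of its experiment NSF was lower, and in all 16 ZNF804A was higher (4 pairings per experiment, which share libraries). The share of all genes that kept 1 direction in all 16 was not counted, so this is not read as particular to NSF and ZNF804A. TCF4 fell in U251 total RNA and rose in U343 PABP-bound RNA, C10orf26 fell in U343, and CACNA1C rose in U343. edgeR's quasi-likelihood test with Benjamini-Hochberg adjustment, at a threshold of 0.05, was fitted on all genes of each experiment. In U251 RNASeq, 7 of the 8 genes passed the filter on low counts, 3 fell (NSF, TCF4 and SYT1) and 1 rose (ZNF804A), where 29.0% of the 13052 genes tested fell and 28.7% rose. In U251 RIPSeq, 7 were tested and 0 were called in either direction, beside 0.263% of 14087 genes that fell and 0.944% that rose. DESeq2 also called 0 there, and 1 of the 7 (ZNF804A) had an unadjusted p under 0.05. In U343 RNASeq, 7 were tested, 2 fell (NSF and C10orf26) and 1 rose (CACNA1C), beside 11.7% of 15088 genes that fell and 8.31% that rose. In U343 RIPSeq, 7 were tested, 2 fell (NSF and C10orf26) and 3 rose (CACNA1C, TCF4 and ZNF804A), beside 27.8% of 14866 genes that fell and 28.5% that rose. The median log2 fold change of the tested members was -0.32, -0.38, 0.51 and 0.52 in these 4 experiments, and that of all tested genes was 0.02, -0.02, 0.02 and 0.01. In U251 RNASeq and U343 RIPSeq, over 1 in 4 genes moved in each direction, so counts of 1 to 3 genes of 7 there say nothing particular about these genes. CPLX1 in U251 and CSMD1 in U343 were too low to test.

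**Figure D1:**
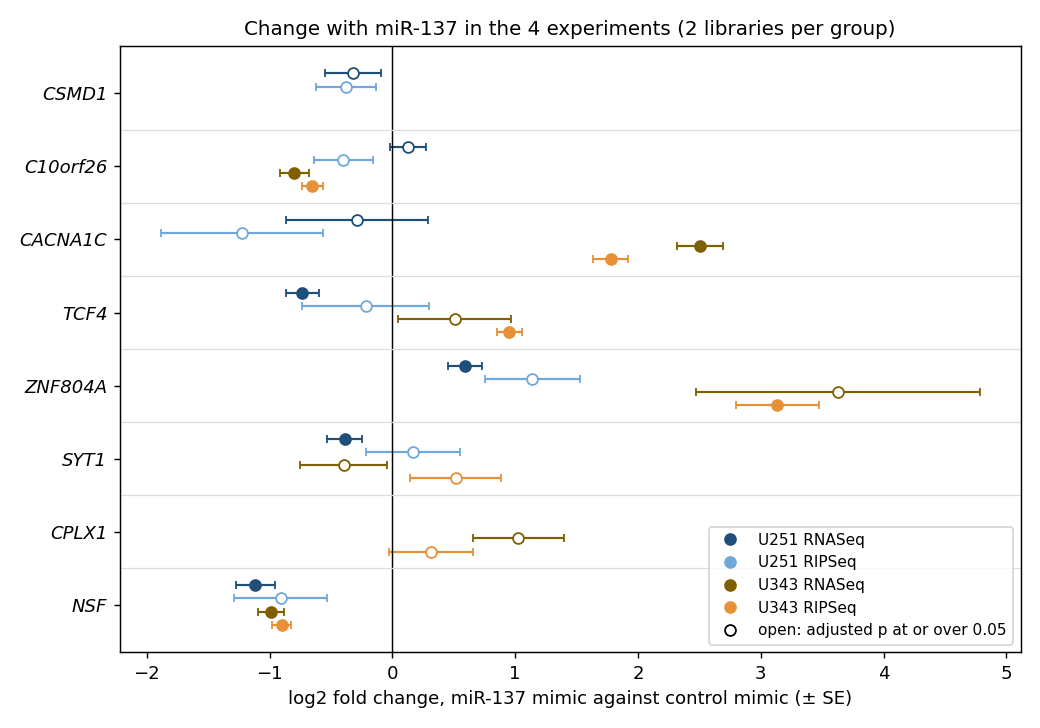
Log2 fold change of each gene with the miR-137 mimic against the control mimic, from edgeR, with its standard error, in the 4 experiments (2 libraries per group). Filled points had an adjusted p under 0.05 and open points did not; all 4 NSF points lie between -1.12 and -0.90, and the CACNA1C points of U343 lie above 1.7 while those of U251 lie below 0.

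The study's own criterion for a lowered gene was stricter. Each miR-137 library of an experiment was set against each control library by Fisher's exact test, and all 4 pairings had to give an odds ratio above 2 with the adjusted p below 0.001. By this rule 0 of the 8 genes were lower in any experiment, where it called 2.21% of all genes in U251 RNASeq, 1.49% in U251 RIPSeq, 2.88% in U343 RNASeq and 3.40% in U343 RIPSeq. NSF came nearest. It met the rule in 1, 2, 2 and 0 of the 4 pairs in that order of experiments, and its odds ratios ran from 1.53 to 2.10 in U251 RNASeq, 1.25 to 2.32 in U251 RIPSeq, 1.87 to 2.20 in U343 RNASeq and 1.76 to 1.98 in U343 RIPSeq. With an odds ratio over 1.5 in place of 2, NSF passed in U251 RNASeq, U343 RNASeq and U343 RIPSeq, and C10orf26 in U343 RNASeq. CACNA1C met the rule in 2 of 4 pairs in U251 RIPSeq, both with control replicate 1. Fisher's test compares one library with another and does not see how much replicates vary.

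NSF encodes the ATPase that pulls SNARE complexes apart after fusion so that they can be used again. The gene spans chr17:42023354-42190000 on the plus strand of hg18, with no other listed gene over it, and has a pseudogene, NSFP1, that could share reads. In U251 RNASeq the control libraries had 43.7 and 56.3 CPM and the miR-137 libraries 24.5 and 21.8 CPM (684, 921, 271 and 245 reads). The groups did not overlap, and NSF fell to 0.462 times the control level, from 50.0 ± 8.94 to 23.1 ± 1.92 CPM (SD, n = 2; log2 fold change -1.12, SE 0.16, edgeR adjusted p = 4.8e-05). In U343 RNASeq it fell from 122.5 and 110.8 CPM to 56.3 and 61.4 CPM, to 0.505 times the control level (log2 fold change -0.99, SE 0.11, edgeR adjusted p = 0.0107). In U343 RIPSeq it fell from 92.9 and 90.7 CPM to 48.7 and 49.6 CPM, to 0.535 times (log2 fold change -0.90, SE 0.08, edgeR adjusted p = 5.8e-05). The control libraries of U251 RIPSeq disagreed, with 22.9 and 42.5 CPM, and both miR-137 libraries, 18.5 and 16.4 CPM, were below them. The log2 fold change there was -0.91 (SE 0.38, edgeR adjusted p = 0.28). It was -0.31 against control replicate 1 alone and -1.29 against control replicate 2 alone. The fall in U343 RNASeq was as large in the miR-137 library without the interferon-stimulated genes (-1.05 with that library alone, edgeR adjusted p = 0.00104) as in the other (-0.93, edgeR adjusted p = 0.00106). When either control of U343 RNASeq was left out, edgeR called 0 of the 15426 or 15539 genes tested in that experiment, so all its calls named here are lost, and the log2 fold change of NSF was -0.91 without replicate 1 and -1.06 without replicate 2 (edgeR adjusted p = 0.16 and 0.18). A fit with 1 library in a group assumes that it varies as the other group does.

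C10orf26, named WBP1L in current annotation, encodes a membrane protein with motifs that bind WW domains, and lies at chr10:104493717-104566011 on the plus strand of hg18. It has 12 annotated pseudogenes, so its reads may be shared with near copies. In U343 RNASeq the control libraries had 31.5 and 27.5 CPM and the miR-137 libraries 16.9 and 17.1 CPM. In U343 RIPSeq they had 28.9 and 28.0 CPM against 18.2 and 18.1 CPM. The groups were apart in both, and the gene fell in both (log2 fold change -0.80, SE 0.12, edgeR adjusted p = 0.0192 in RNASeq, and -0.65, SE 0.09, edgeR adjusted p = 0.00055 in RIPSeq). The U343 RNASeq value was -0.81 with the library that lacked the interferon-stimulated genes and -0.80 with the other. In U251 RNASeq the levels overlapped, 26.5 and 22.1 CPM in the controls and 26.3 and 26.8 CPM with miR-137 (log2 fold change 0.13, SE 0.15, edgeR adjusted p = 0.48). In U251 RIPSeq both miR-137 libraries (20.0 and 19.1 CPM) were below both controls (26.9 and 24.5 CPM), a log2 fold change of -0.40 (SE 0.24) that did not pass the test (edgeR adjusted p = 0.43). Against control replicate 2 alone it was -0.33, and against control replicate 1 alone -0.38.

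CACNA1C encodes the pore-forming subunit of the L-type calcium channel Cav1.2, and lies at chr12:2032677-2677376 on the plus strand of hg18. In U343 it rose in both assays. The control libraries of U343 RNASeq had 132 and 94 reads (2.86 and 2.48 CPM), and the miR-137 libraries 704 and 578 reads (16.7 and 13.6 CPM). It rose 5.67-fold (log2 fold change 2.50, SE 0.19, edgeR adjusted p = 0.0071). In U343 RIPSeq it rose from 2.42 and 2.19 CPM to 7.89 and 7.94 CPM, 3.43-fold (log2 fold change 1.78, SE 0.14, edgeR adjusted p = 4.6e-05). The rise in U343 RNASeq was 2.64 on the log2 scale with the library that lacked the interferon-stimulated genes and 2.34 with the other, and both single-library values passed the test. In U251 the gene was scarce. Its reads numbered 13 and 8 in the controls and 9 and 3 with miR-137 in RNASeq (log2 fold change -0.29, SE 0.58, edgeR adjusted p = 0.69), and 51 and 21 against 19 and 14 in RIPSeq. The latter was a log2 fold change of -1.23 (SE 0.66, edgeR adjusted p = 0.38), which came to -1.72 against control replicate 1 alone and -0.28 against control replicate 2 alone.

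TCF4 encodes a bHLH transcription factor of the E-protein family, and lies at chr18:51040560-51406858 on the minus strand of hg18. In U251 RNASeq the controls had 197.2 and 187.4 CPM and the miR-137 libraries 126.2 and 105 CPM, and the gene fell to 0.601 times the control level (log2 fold change -0.74, SE 0.13, edgeR adjusted p = 0.0004). In U343 RIPSeq it went the other way, from 23.3 and 26.1 CPM to 45.6 and 50.2 CPM, a rise of 1.94-fold (log2 fold change 0.95, SE 0.10, edgeR adjusted p = 0.00014). In a joint fit of both assays of a line, where they share 1 estimate of the spread, neither call was made (edgeR adjusted p = 0.22 and 0.081). The U343 RNASeq libraries fell on both sides of their controls. The controls had 38.6 and 33.4 CPM, miR-137 replicate 1, which lacked the interferon-stimulated genes, had 28.8 CPM, and replicate 2, which had them, 73.6 CPM. The log2 fold change over both was 0.51 (SE 0.46, edgeR adjusted p = 0.48), with replicate 2 alone it was 1.02 (edgeR adjusted p = 0.00093), and with replicate 1 alone it was -0.33 (edgeR adjusted p = 0.084). The part of the interferon-stimulated genes in this difference was not tested. In U251 RIPSeq the controls, at 36.4 and 98.6 CPM, lay on both sides of the miR-137 libraries, at 59.8 and 56.5 CPM. The log2 fold change was -0.22 (SE 0.52, edgeR adjusted p = 0.85), and it was 0.77 against control replicate 1 alone and -0.77 against control replicate 2 alone.

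ZNF804A encodes a zinc finger protein and lies at chr2:185171338-185512459 on the plus strand of hg18. In U251 RNASeq it rose from 28.8 and 29.3 CPM to 47 and 40.7 CPM, 1.51-fold (log2 fold change 0.59, SE 0.14, edgeR adjusted p = 0.0023, and 0.16 in the joint fit of both assays). In U251 RIPSeq the controls had 4.89 and 9.45 CPM and the miR-137 libraries 16.0 and 15.7 CPM. This was a log2 fold change of 1.14 (SE 0.39) with an edgeR adjusted p of 0.21, and it was 1.78 against control replicate 1 alone and 0.74 against control replicate 2 alone. U343 cells hardly held the gene in the control-transfected libraries. In U343 RIPSeq it had 6 and 5 reads in the controls and 40 and 50 with miR-137, a ratio of summed reads of 8.97 (exact 95% interval for counting error only, 4.78 to 18.6; log2 fold change 3.14, SE 0.34, edgeR adjusted p = 0.00017). In U343 RNASeq it had 4 and 3 reads in the controls, 12 in miR-137 replicate 1 and 78 in replicate 2, the library with the interferon-stimulated genes. The log2 fold change over both was 3.63 (SE 1.15, edgeR adjusted p = 0.098), with replicate 2 alone 4.41 (edgeR adjusted p = 0.00071) and with replicate 1 alone 1.74 (edgeR adjusted p = 0.11). Why the replicates differ was not tested.

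**Figure D2:**
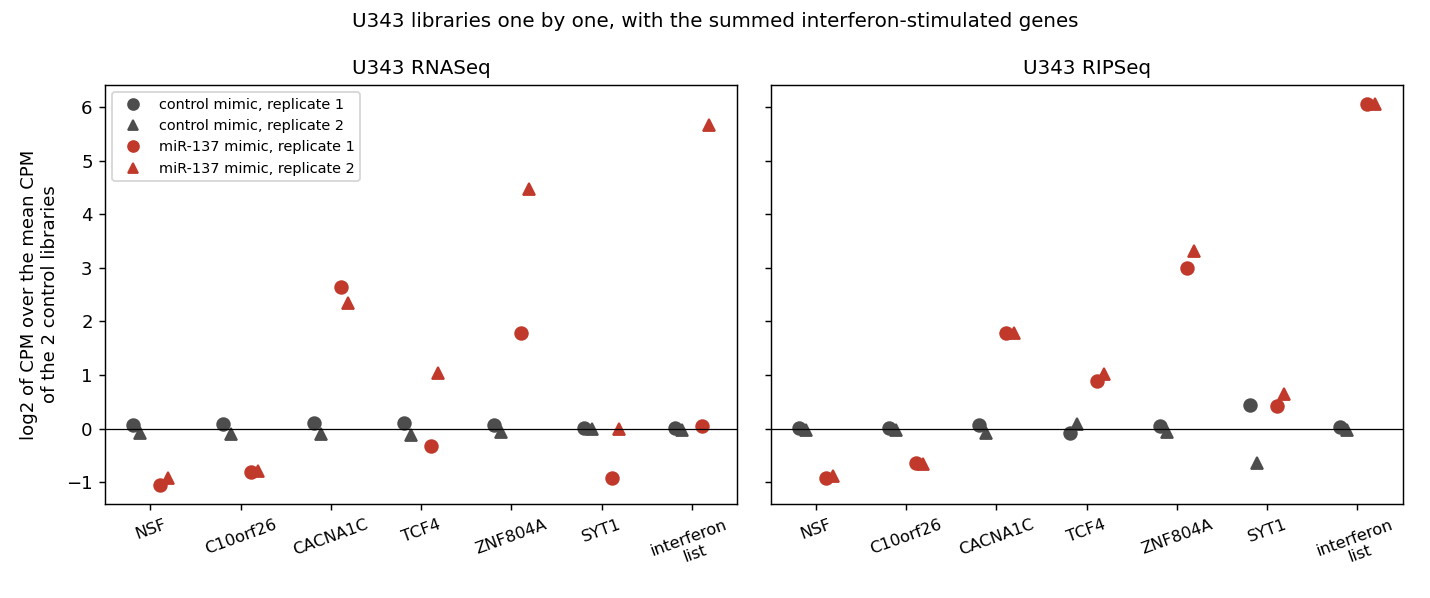
Each U343 library as log2 of its CPM over the mean CPM of the 2 control libraries of its experiment, for 6 of the genes and for the summed 12 interferon-stimulated genes (circles, replicate 1; triangles, replicate 2; grey, control; red, miR-137). In U343 RNASeq the 2 miR-137 libraries lie together for NSF, C10orf26 and CACNA1C and apart for TCF4, ZNF804A and SYT1, and miR-137 replicate 1 is at 0.052 for the interferon list where replicate 2 is at 5.67.

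SYT1 encodes synaptotagmin 1, the calcium sensor of fast transmitter release, and lies at chr12:77781904-78369918 on the plus strand of hg18. In U251 RNASeq the controls had 34.8 and 34.1 CPM and the miR-137 libraries 28.9 and 23.8 CPM. It fell to 0.764 times the control level (log2 fold change -0.39, SE 0.15, edgeR adjusted p = 0.0345). This is the least secure of the calls: the adjusted p was 0.073 in DESeq2, 0.16 with upper-quartile scaling, and 0.079, 0.065 and 0.22 in edgeR without control replicate 1, control replicate 2 and miR-137 replicate 2. In U251 RIPSeq the controls, 10.98 and 21.3 CPM, lay on both sides of the miR-137 libraries, 18.1 and 18.2 CPM (log2 fold change 0.17, SE 0.39, edgeR adjusted p = 0.84). The value was 0.81 against control replicate 1 alone and -0.23 against control replicate 2 alone. U343 had little of the gene, 75 and 61 reads in the RNASeq controls and 36 and 68 with miR-137, and 28 and 12 against 24 and 28 in RIPSeq. The log2 fold changes there, -0.40 (SE 0.35, edgeR adjusted p = 0.47) and 0.52 (SE 0.37, edgeR adjusted p = 0.28), did not pass the test. In U343 RNASeq the value was -0.92 with the miR-137 library that lacked the interferon-stimulated genes (edgeR adjusted p = 0.054) and -0.02 with the other, and in U343 RIPSeq it ran from 0.09 to 1.16 with 1 library left out.

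CPLX1 encodes complexin 1, which binds the assembled SNARE complex, and lies at chr4:768745-809945 on the minus strand of hg18. It was near the limit of detection, with 0 to 23 reads per library. In U251 RNASeq the 4 libraries had 1, 1, 0 and 1 reads, and in U251 RIPSeq the controls had 12 and 4 and the miR-137 libraries 6 and 8. In U343 RNASeq the controls had 9 and 7 reads and the miR-137 libraries 14 and 19, a log2 fold change of 1.03 (SE 0.37) with an edgeR adjusted p of 0.13. That log2 fold change was 0.80 with the miR-137 library that lacked the interferon-stimulated genes and 1.22 with the other. In U343 RIPSeq the counts of 15 and 21 against 23 and 18 overlapped (log2 fold change 0.32, SE 0.34, edgeR adjusted p = 0.47). No difference was detectable at this depth.

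CSMD1 encodes a large membrane protein with complement-regulating domains, and lies at chr8:2780283-4839736 on the minus strand of hg18. It was measurable in U251 alone. The U251 RNASeq controls had 100 and 117 reads and the miR-137 libraries 72 and 49, which at 6.388 and 7.157 against 6.497 and 4.349 CPM overlapped (log2 fold change -0.32, SE 0.23, edgeR adjusted p = 0.24). In U251 RIPSeq both miR-137 libraries (2.95 and 3.13 CPM) were below both controls (3.95 and 3.94 CPM), with a log2 fold change of -0.38 (SE 0.24) that did not pass the test (edgeR adjusted p = 0.46). It was -0.38 against control replicate 2 alone and -0.29 against control replicate 1 alone. In U343 it had 3 to 7 reads per library.

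**Figure D3:**
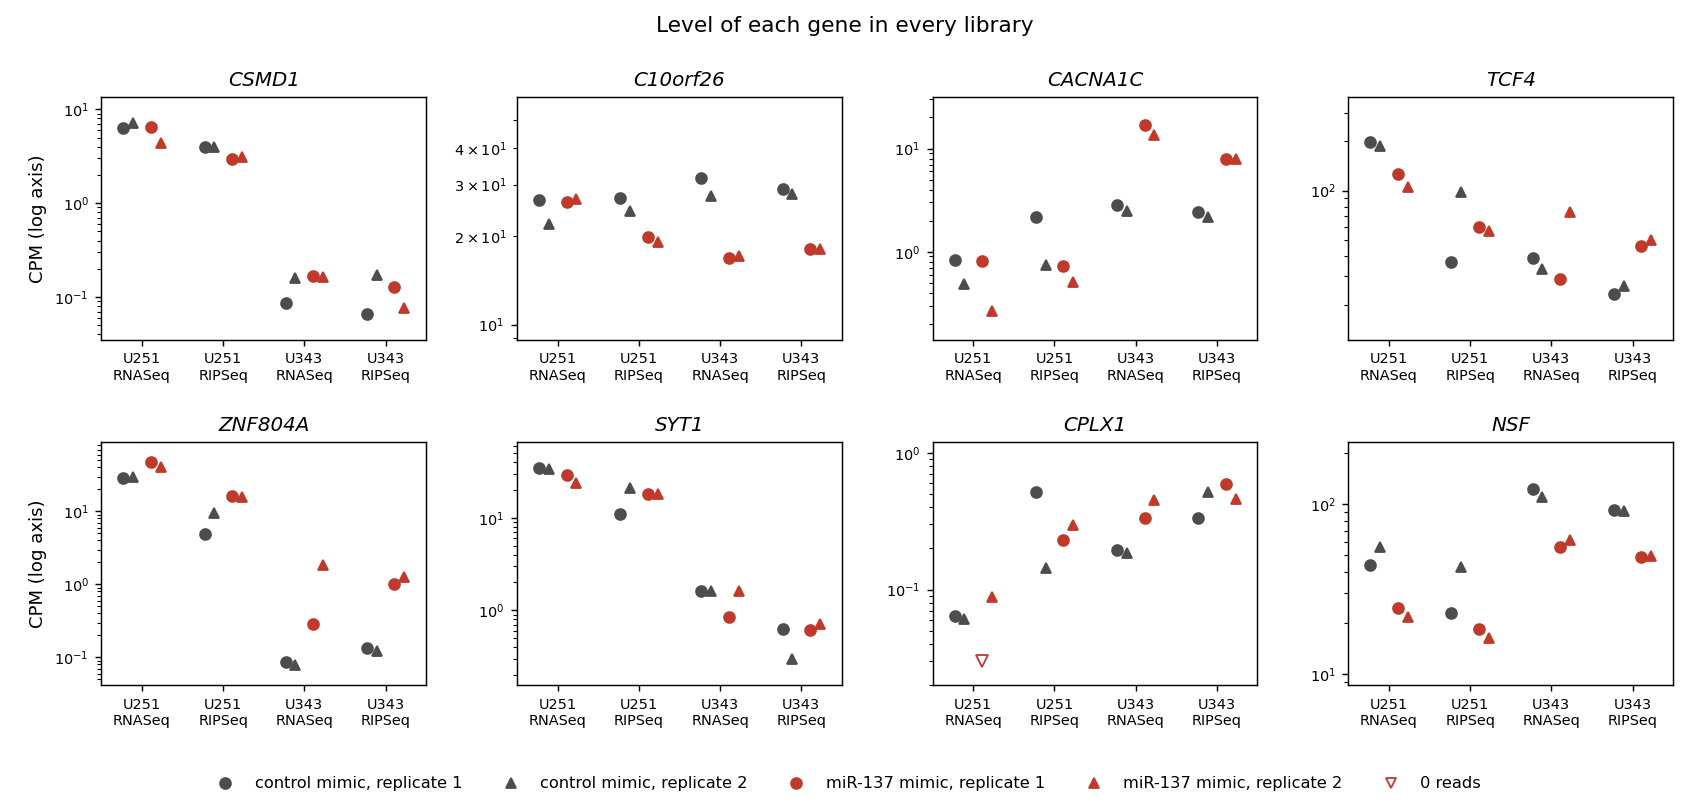
Level of each gene in every library, as CPM on a log axis whose range differs between panels, scaled within each experiment (circles, replicate 1; triangles, replicate 2; grey, control; red, miR-137; an open triangle at the foot marks a library with 0 reads). The levels of genes cannot be compared with one another, since counts were not divided by transcript length; ZNF804A, SYT1 and CSMD1 are far lower in U343 than in U251, and the 2 controls of U251 RIPSeq are far apart for TCF4, ZNF804A, SYT1 and NSF.

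Whether the effect differed between the lines was tested as an interaction in edgeR, within each assay. In total RNA 2 genes differed, where 25.2% of 15550 genes did. The change of C10orf26 was lower in U343 than in U251 by 0.93 on the log2 scale (difference -0.93, SE 0.19, edgeR adjusted p = 0.0102), and that of CACNA1C was higher in U343 by 2.78 (SE 0.60, edgeR adjusted p = 0.0126). The differences for TCF4 (1.23, SE 0.50, edgeR adjusted p = 0.11) and ZNF804A (3.00, SE 1.06, edgeR adjusted p = 0.070) did not pass. Without the U343 library that lacked the interferon-stimulated genes they were 1.76 and 3.79 and passed (edgeR adjusted p = 1.6e-05 and 1.2e-05). Without the other miR-137 library of U343 they were 0.40 and 1.12 and did not pass. NSF changed by nearly the same amount in both lines, with a difference of 0.12 (SE 0.21, edgeR adjusted p = 0.72). In PABP-bound RNA 0 of the genes differed, where 3.28% of 15959 genes did. CACNA1C had a difference of 3.06 (SE 0.65, edgeR adjusted p = 0.054), followed by ZNF804A, 2.04 (SE 0.55, edgeR adjusted p = 0.089). These 2 had an unadjusted p under 0.05 and were called by DESeq2, and leaving out either control of U251 RIPSeq gave 2.09 and 3.61 for CACNA1C. For NSF the difference was 0.06 (SE 0.38), but leaving out control replicate 1 gave 0.42 and leaving out replicate 2 gave -0.49, with opposite signs.

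Whether the effect differed between PABP-bound and total RNA was tested in the same way within each line. In U251, 0 of the 7 genes tested differed in edgeR, beside 0.134% of 14210 genes, and 0 had an unadjusted p under 0.05. In U343, 0 of 7 differed, beside 0.00649% of 15413 genes, and CACNA1C had an unadjusted p under 0.05 (difference -0.72, SE 0.22, edgeR adjusted p = 0.21). DESeq2 also called 0 in each line. Without control replicate 2 of U251 RIPSeq, 5 of the genes (C10orf26, NSF, SYT1, TCF4 and ZNF804A) were called in U251, together with 8869 genes in all, and without control replicate 1 none. Without the U343 RNASeq library that had the interferon-stimulated genes, CACNA1C (-0.88, edgeR adjusted p = 0.0201) and TCF4 (1.26, edgeR adjusted p = 0.0015) were called in U343, and without the library that lacked them none. For NSF, the change in PABP-bound RNA differed from that in total RNA by 0.17 (SE 0.42) in U251 and 0.09 (SE 0.12) in U343.

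The libraries of control-transfected cells also give the level of each mRNA in PABP-bound against total RNA, relative to other mRNAs. In U251 1 gene, ZNF804A, was lower in PABP-bound than in total RNA, beside 6.14% of 13242 genes that were lower, and 0 were higher, beside 7.87%. ZNF804A had 25.95 and 26.09 CPM in total and 4.99 and 9.15 CPM in PABP-bound RNA (log2 difference -1.88, SE 0.39, edgeR adjusted p = 0.0335). TCF4 had 177.6 and 166.9 CPM in total against 37.1 and 95.4 CPM in bound RNA, a log2 difference of -1.38 (SE 0.49) with an edgeR adjusted p of 0.098. Of the 6 genes tested in U343, 3 were lower in PABP-bound RNA, beside 24.2% of 14878 genes, and 1 was higher, beside 24.4%. SYT1 was lower by 1.69 on the log2 scale, from 1.57 and 1.56 CPM to 0.648 and 0.308 CPM (difference -1.69, SE 0.33, edgeR adjusted p = 0.0045). TCF4 was lower, from 37.4 and 32.3 CPM to 24.3 and 27.2 CPM (difference -0.44, SE 0.10, edgeR adjusted p = 0.0107). NSF, with a difference of -0.24 (SE 0.08, edgeR adjusted p = 0.0414), and CPLX1, with 1.24 (SE 0.42, edgeR adjusted p = 0.0419), were just past the threshold, and both calls were lost in DESeq2 and whenever 1 of the 4 libraries was left out. The call of TCF4 was lost without replicate 1 of either assay, and that of SYT1 was kept. In U251 the log2 difference of SYT1 was -0.96 (SE 0.39, edgeR adjusted p = 0.13). The call of ZNF804A was lost without either RNASeq control of U251 (edgeR adjusted p = 0.16 and 0.17). Which genes were called in U251 also turned on the RIPSeq control left out. The log2 difference without RIPSeq control replicate 1 and without replicate 2 was -0.85 and -2.30 for TCF4, -1.50 and -2.47 for ZNF804A and -0.58 and -1.55 for SYT1.

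**Figure D4:**
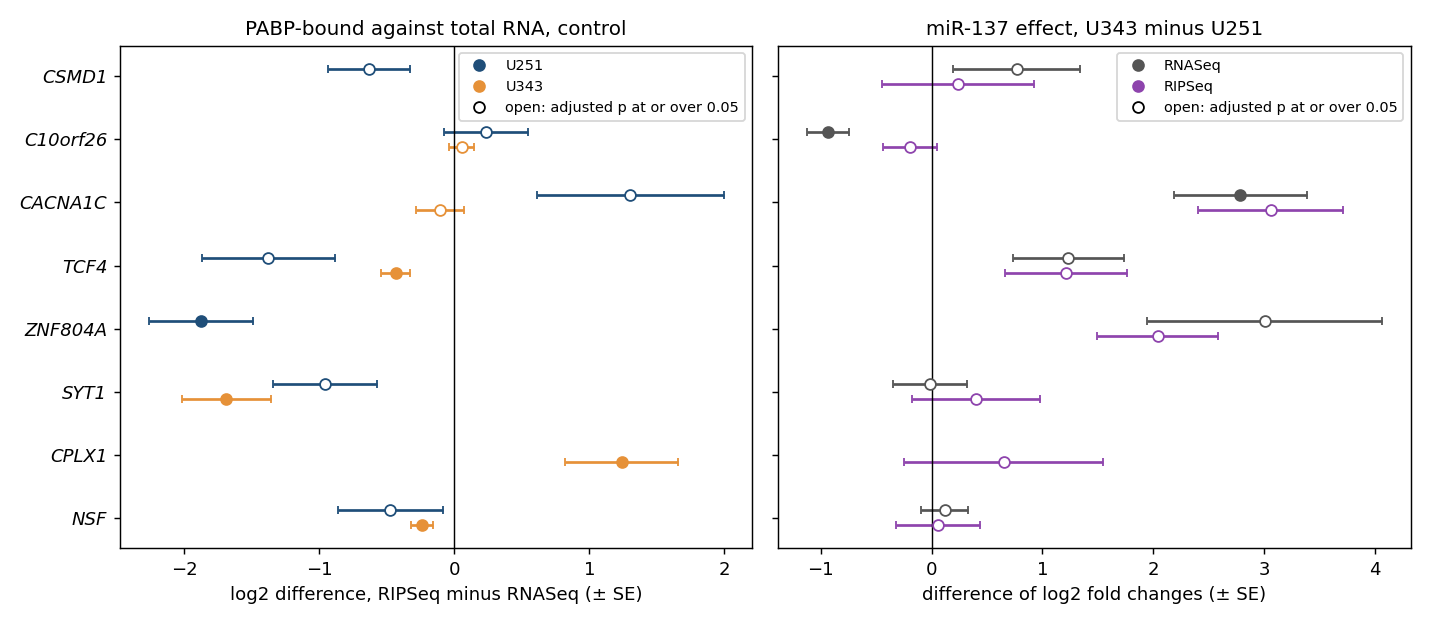
Left, log2 difference of each gene between PABP-bound and total RNA in the control libraries of both lines; right, difference of its log2 fold change with miR-137 between U343 and U251, in both assays (edgeR estimates ± SE; filled points had an adjusted p under 0.05). On the right, C10orf26 at -0.93 and CACNA1C at 2.78 in RNASeq are the filled points; on the left, these are ZNF804A in U251 and TCF4, SYT1, CPLX1 and NSF in U343.

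The control-transfected lines differed in their levels. All 7 genes that could be tested differed between the control total RNA of U343 and that of U251, beside 84.8% of 14787 genes, so nearly all genes differed between the lines, whose libraries also differ in chemistry. ZNF804A (log2 difference -8.32, SE 0.23), CSMD1 (-5.72, SE 0.32), SYT1 (-4.36, SE 0.14) and TCF4 (-2.36, SE 0.10) were lower in U343. CACNA1C (2.07, SE 0.32), NSF (1.28, SE 0.12) and C10orf26 (0.34, SE 0.13, edgeR adjusted p = 0.0363) were higher in U343. The call of C10orf26 was lost in DESeq2 (adjusted p = 0.090).

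The other genes of the pathways were taken from lists made by function, so that the 8 genes can be read beside their partners. The counts of all these lists stand beside shares of 29.0% lower and 28.7% higher among all genes tested in U251 RNASeq, 0.263% and 0.944% in U251 RIPSeq, 11.7% and 8.31% in U343 RNASeq and 27.8% and 28.5% in U343 RIPSeq, and with so few genes a list nothing particular to it is read from them. Of the other SNARE proteins, SNARE chaperones and complexins (15 genes), edgeR called 3 lower and 6 higher of 11 tested in U251 RNASeq, 0 and 1 of 12 in U251 RIPSeq, 0 and 1 of 11 in U343 RNASeq and 3 and 4 of 11 in U343 RIPSeq. SNAP23, the membrane SNARE of non-neuronal cells, fell in U251 RNASeq (from 96.5 and 101.5 CPM to 41.7 and 44.7 CPM; log2 fold change -1.197) and in U343 RIPSeq (-0.59). NAPA, the alpha-SNAP adaptor through which NSF grips SNARE complexes, rose by 1.30 on the log2 scale in U251 RNASeq and by 1.38 in U343 RIPSeq. STX1A, a syntaxin, rose in U251 RNASeq (0.86), U343 RNASeq (0.92) and U343 RIPSeq (1.203). SNAP25, the neuronal membrane SNARE, rose in U251 RIPSeq (2.17, from 38 and 56 reads to 216 and 221).

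Of the 16 other synaptotagmins, 1 was called lower and 3 higher of 5 tested in U251 RNASeq, 0 and 0 of 10 in U251 RIPSeq, 0 and 2 of 9 in U343 RNASeq and 2 and 2 of 9 in U343 RIPSeq. SYT11, a synaptotagmin that does not bind calcium, rose in U251 RNASeq (0.82), U343 RNASeq (2.02, from 141.2 and 130.9 CPM to 577.2 and 527.4 CPM) and U343 RIPSeq (1.47). Its rise in U343 RNASeq was 2.08 with the library that lacked the interferon-stimulated genes and 1.95 with the other. SYT16 fell in U251 RNASeq (-1.86) and U343 RIPSeq (-0.55), and SYT17 in U343 RIPSeq (-0.56).

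Of the 25 other synaptic vesicle and active zone genes, 2 were called lower and 6 higher of 14 tested in U251 RNASeq, 0 and 0 of 19 in U251 RIPSeq, 1 and 4 of 17 in U343 RNASeq and 1 and 9 of 15 in U343 RIPSeq. SYP, the vesicle protein synaptophysin, rose in U343 RNASeq from 44 and 41 reads to 575 and 342 (log2 fold change 3.41) and in U343 RIPSeq from 86 and 80 to 604 and 566 (2.95). RAB27B, a GTPase of vesicle docking, rose in U251 RNASeq (1.72) and U343 RIPSeq (2.32). The active zone genes UNC13A (2.33) and BSN (1.02) rose in U343 RNASeq and RIMS2 (3.18) in U343 RIPSeq. BSN was also called higher in U251 RNASeq at few reads (1.24, from 18 and 9 reads to 21 and 24). SYPL1, a relative of synaptophysin, rose in U251 RNASeq (1.18), where RIMS3 fell (-1.35). The medians of the tested genes of this list were 0.51, 0.17, 0.52 and 0.39, beside medians of all genes of 0.02, -0.02, 0.02 and 0.01.

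CACNA1C had 25 other voltage-gated calcium channel subunits beside it. Of these, 2 were called lower and 5 higher of 7 tested in U251 RNASeq, 0 and 0 of 16 in U251 RIPSeq, 0 and 2 of 17 in U343 RNASeq and 1 and 8 of 15 in U343 RIPSeq. CACNG4, an auxiliary subunit, fell in U251 RNASeq (-1.21, from 847 and 752 reads to 228 and 255) and rose in U343 RNASeq (1.79, from 408 and 441 to 1549 and 1430). Of the pore subunits of T-type channels, CACNA1H rose in U343 RNASeq (3.31) and U343 RIPSeq (2.20), and CACNA1I in U343 RIPSeq (4.43, from 10 and 7 reads to 160 and 179). The beta subunit CACNB1 rose in U251 RNASeq (1.26) and U343 RIPSeq (1.12), and CACNA2D1, an alpha-2/delta subunit, fell in U251 RNASeq (-1.201).

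TCF4 pairs with other E proteins and is held back by ID proteins. Of 7 such genes, 2 were called lower and 2 higher of 6 tested in U251 RNASeq, 0 and 1 of 7 in U251 RIPSeq, 3 and 0 of 5 in U343 RNASeq and 3 and 1 of 5 in U343 RIPSeq. TCF3, a second E protein, fell in U251 RNASeq (-1.17), U343 RNASeq (-0.61, a call lost with a replicate block, edgeR adjusted p = 0.0576) and U343 RIPSeq (-0.41). TCF12, also an E protein, fell in U251 RNASeq (-0.67), U343 RNASeq (-0.59) and U343 RIPSeq (-0.39). In U343 RIPSeq, TCF4 rose while TCF3 and TCF12 fell, and in U251 RNASeq TCF4 (-0.74), TCF3 and TCF12 all fell. ID3 fell in U343 RNASeq (-1.38) and U343 RIPSeq (-1.80), while in U251 ID2 rose in RNASeq (1.72) and RIPSeq (2.05) and ID4 rose in RNASeq (0.96).

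Of the 8 family relatives of CSMD1, ZNF804A and C10orf26, 7 are in the U251 tables. Of these, 0 were called lower and 1 higher of 2 tested in U251 RNASeq, 0 and 0 of 4 in U251 RIPSeq, 0 and 0 of 5 in U343 RNASeq and 1 and 2 of 5 in U343 RIPSeq. CSMD2, the nearest relative of CSMD1, rose in U251 RNASeq (1.51, from 341 and 276 reads to 669 and 557). WBP1, the relative of C10orf26, fell in U343 RIPSeq (-0.69), and SEZ6 (2.81) and SEZ6L2 (0.53) rose there. Among other genes reported at early schizophrenia loci (10 in the U251 tables, 11 in those of U343), 2 were called lower and 2 higher of 6 tested in U251 RNASeq, 0 and 0 of 6 in U251 RIPSeq, 1 and 0 of 9 in U343 RNASeq and 4 and 2 of 9 in U343 RIPSeq. ANK3, which encodes the scaffold ankyrin-G, rose in U251 RNASeq (1.34) and fell in U343 RIPSeq (-0.72). STT3A (-0.79) and MMP16 (-0.61) fell in U251 RNASeq, VRK2 (-1.11) in U343 RNASeq and NRGN (-0.87) in U343 RIPSeq, where NT5C2 rose (1.17). In U251 RNASeq NRGN was called higher at few reads (1.51, from 21 and 11 reads to 28 and 36).

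The 9 genes that the study named as miR-137 targets from earlier work show how genes already held to be targets moved in these libraries. Of them 8 fell and 1 rose in U251 RNASeq, 0 were called in U251 RIPSeq, 5 fell and 1 rose in U343 RNASeq, and 6 fell and 1 rose in U343 RIPSeq, with medians of -1.02, -1.17, -0.66 and -0.78. CDK6, a kinase of the cell cycle, fell in U251 RNASeq from 1541 and 1603 CPM to 149.2 and 122.3 CPM (log2 fold change -3.53), in U343 RNASeq (-2.78) and in U343 RIPSeq (-3.20). EZH2, a histone methyltransferase, fell in U251 RNASeq (-0.52), U343 RNASeq (-1.66) and U343 RIPSeq (-1.44). CSE1L fell in U251 RNASeq (-0.97) and U343 RNASeq (-1.41), and GLIPR1 in U251 RNASeq (-1.91). PTGS2, which encodes COX-2, was the one that rose in U251 RNASeq (2.48) and U343 RIPSeq (3.78). In U343 RNASeq PTGS2 had 146 and 90 reads in the controls, 159 in miR-137 replicate 1 and 3012 in replicate 2, the library with the interferon-stimulated genes, and was not called (edgeR adjusted p = 0.136). The one that rose there was MSI1, which encodes the RNA-binding protein Musashi 1 and is named after its values were seen (809 and 579 reads against 1108 and 1085; log2 fold change 0.66, SE 0.12, edgeR adjusted p = 0.03), while it fell in U251 RNASeq (-0.84, SE 0.27, edgeR adjusted p = 0.0172). In the same order of experiments NSF had log2 fold changes of -1.12, -0.91, -0.99 and -0.90. CDK6 fell further in each experiment for which it is given above. Of all genes tested, 29.0% fell in U251 RNASeq and 27.8% in U343 RIPSeq, so nothing about targeting is read from the fall of NSF. No match to the seed was sought in any mRNA here, so whether NSF is a direct target was not tested.

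The named genes of these lists were also fitted without the libraries that stand apart. All 14 that the rule named in U343 RNASeq were called with either miR-137 library alone, and 0 of the 14 when either control was left out. With the library that lacked the interferon-stimulated genes and with the other, the log2 fold change was 3.75 and 2.98 for SYP, 2.61 and 1.96 for UNC13A, 3.81 and 2.53 for CACNA1H, 0.99 and 0.83 for STX1A and -1.39 and -0.89 for VRK2. In U251 RIPSeq, SNAP25 (edgeR adjusted p = 0.0491) and ID2 (0.0481) were close to the threshold. Against control replicate 1 and control replicate 2 alone they had 2.42 and 2.03 (SNAP25) and 2.19 and 2.00 (ID2). Both calls were lost without either miR-137 library, with upper-quartile scaling and with no filter.

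**Figure D5:**
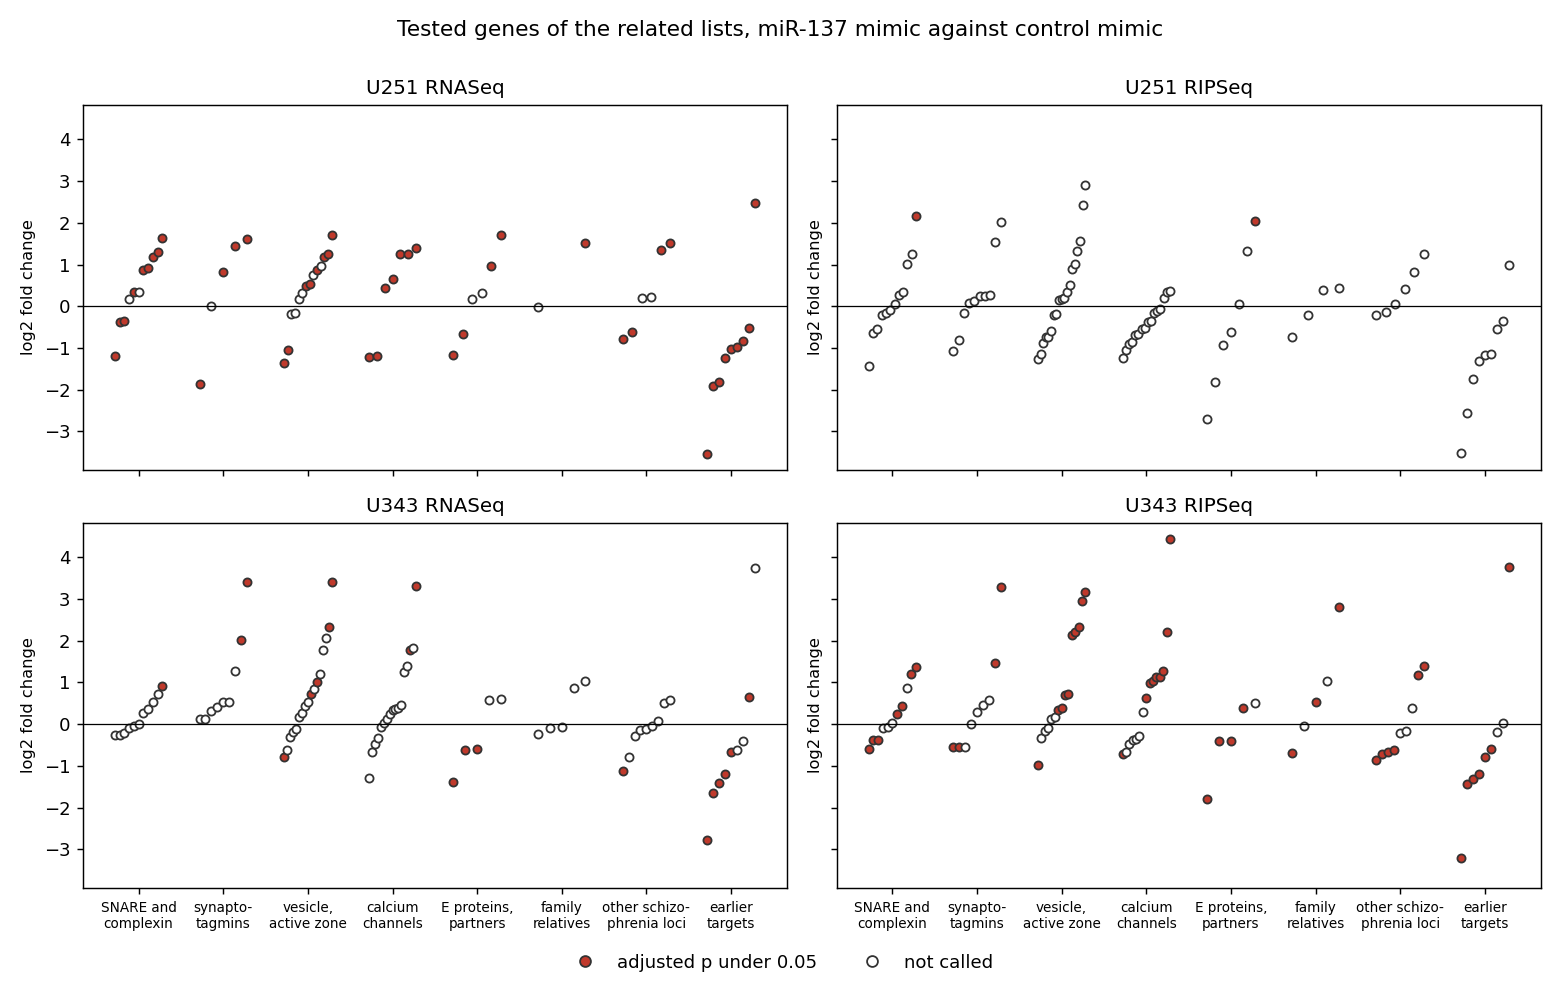
Log2 fold change with miR-137 of every tested gene of the 8 related lists in the 4 experiments, ordered by value within a list; filled points had an edgeR adjusted p under 0.05. Of the 9 earlier targets 8, 8, 7 and 7 lie below 0 in the 4 panels, and in U343 RIPSeq 9 of 15 vesicle and active zone genes and 8 of 15 calcium channel genes were called higher and 1 of each lower, where 28.5% of all genes were called higher and 27.8% lower.

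The levels of the 8 genes are relative to all RNA of a sample, so fewer cells of a kind and less RNA per cell cannot be told apart in them. Genes whose level over the 16 libraries was most like that of a member were found by Pearson's r of log2(CPM + 0.5) among 11469 genes with at least 1 CPM on average in both lines. The libraries differ most by line and chemistry, so these values are a description of that shared pattern. CSMD1 and SYT1, both far lower in U343, were most like AIM1, DHX32 and ULK2 (0.993 to 0.989) and SYTL5, PDE8A and ULK2 (0.99 to 0.989). ZNF804A was most like ZNF585A, ZFHX4 and PAX9 (0.987 to 0.984), and TCF4 like ZNF268, CAMK2D and TASP1 (0.962 to 0.955). CACNA1C was most like RFX2, KIAA0427 and SLC36A1 (0.965 to 0.961), and NSF like TCEA1, KAT2B and DCLK1 (0.979 to 0.97). C10orf26, which varied least between the lines, was most like FAM83D, CDC25C and NUP85 (0.919 to 0.896). CPLX1 was too low for this measure.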

How the data were processed

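RNA of 16 U251 and U343 libraries was depleted of ribosomal RNA and sequenced for 36 cycles on a Genome Analyzer IIx. The authors mapped reads to hg18 with RMAP and deposited, per library, raw counts of reads on the merged transcript of each RefSeq gene, with no normalization. Merged transcripts hide isoforms, and reads of near copies may be shared. Counts were tested as deposited in R 4.3.3 with edgeR 4.0.16 (TMM, filterByExpr, quasi-likelihood F test, Benjamini-Hochberg over all genes tested, threshold 0.05), each experiment alone, and by the study's Fisher rule. DESeq2 1.42.0, other scalings, filters and left-out libraries were alternatives. No column was left unmapped (0). SLC35E2 stands on 2 lines of the U251 tables and the first was kept. The U251 tables give every gene a plus strand, so strands are from the U343 tables.

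The 8 genes and the other lists were chosen with earlier results of these data known. All 8 were named in every experiment, and of each other pathway list up to 3 genes with the largest changes, an adjusted p under 0.05, 1 direction in all 4 pairings, and a mean of 50 or more reads in the group where they were higher. For some of these genes a call in a further experiment is also given. A gene not named in an experiment may still have been called there. Marker and interferon lists are given as counts and sums. Some genes that the rule would name are not reported here. On simulated data with 100 genes changed 2-fold and 100 changed 4-fold, edgeR recovered 82% and 94% in U251 RNASeq, 0% and 26% in U251 RIPSeq, 23% and 91% in U343 RNASeq, and 89% and 98% in U343 RIPSeq. In that order of experiments, 8 of 184, 1 of 27, 24 of 138 and 19 of 206 calls on the simulated data were false. Far fewer genes were changed there than the 7529 called in the real U251 RNASeq data, so these shares may not carry over. Intervals cover counting error only. A further U251 replicate that the methods mention was not analysed here.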

Additional observations from a re-analysis of the deposited data

Results flagged for a closer look

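The change of C10orf26 with miR-137 in total RNA differed between the lines by -0.933 (U343 minus U251, log2; edgeR interaction, adjusted p = 0.0102). That of CACNA1C in total RNA differed by 2.782 (edgeR interaction, adjusted p = 0.0126). In PABP-bound RNA, with TMM scaling, all 4 pairs of CACNA1C were lower with miR-137 in U251 and all 4 were higher in U343. By raw library totals 1 of the U251 pairs was not lower (0.752 against 0.727 CPM with TMM scaling, odds ratio 0.909 on raw totals). The lines gave a difference of 3.059 on the log2 scale that did not pass the edgeR interaction test (adjusted p = 0.0543) and was called by DESeq2 (adjusted p = 0.000423). Line and cDNA chemistry cannot be told apart in any of these.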

How the results depend on the processing

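Of 804 log2 fold changes and differences recomputed under other tools, scalings, filters or fits, 758 kept their direction and side of the threshold, as did 351 of 464 with 1 library left out. Counts of members called moved as follows, among others. SYT1 was lost from the genes lower in U251 RNASeq in DESeq2 and with upper-quartile scaling. The joint fit of both assays gave 1 lower and 0 higher in U251 RNASeq, 1 higher in U251 RIPSeq and 2 higher in U343 RNASeq, and 2 in place of 3 higher in U343 RIPSeq, where TCF4 was lost; a minimum of 50 reads on average also left 2 there, since ZNF804A was not tested; DESeq2 gave 2 higher in U343 RNASeq. An odds ratio over 1.5 in the study's rule gave 1, 2 and 1 genes in U251 RNASeq, U343 RNASeq and U343 RIPSeq. For differences between lines DESeq2 gave 4 in RNASeq and 2 in RIPSeq, and no filter gave 1 in RIPSeq. For PABP-bound against total RNA, DESeq2 gave 2 in each line and no filter 0 in U251. With 1 library left out, members lower ranged from 0 to 4 in U251 RIPSeq and 0 to 2 in U343 RNASeq, members higher from 0 to 3 in both, the rule from 0 to 1 in both, differences between assays from 0 to 5 in U251 and 0 to 2 in U343, between lines from 2 to 4 in RNASeq and 3 to 4 in RIPSeq, and PABP-bound against total from 0 to 6 in U251 and 1 to 2 in U343. The cause of these moves was not tested, beyond the fewer libraries in a fit and the spread that the joint fit shares between assays.

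Signs turned with 1 library left out for C10orf26 (-0.006 to 0.258) and CACNA1C (-1.267 to 0.298) in U251 RNASeq, SYT1 (-0.232 to 0.814) and TCF4 (-0.765 to 0.765) in U251 RIPSeq and TCF4 (-0.326 to 1.023) in U343 RNASeq. Between assays they turned for CSMD1 (-0.022 to 0.006), CACNA1C (-1.491 to 0.066) and NSF (-0.115 to 0.751) in U251 and for TCF4 (-0.074 to 1.258) and ZNF804A (-1.275 to 1.378) in U343. Between lines they turned for SYT1 in RNASeq (-0.535 to 0.368) and for CPLX1 (-0.514 to 1.292), SYT1 (-0.196 to 0.772) and NSF (-0.489 to 0.415) in RIPSeq, and for PABP-bound against total C10orf26 in U251 (-0.027 to 0.252) and U343 (-0.037 to 0.154). They also turned for CSMD1 between assays in U251 with no filter (0.059) and for SYT1 between lines in RNASeq in DESeq2 (0.042) and with no filter (0.027).

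No label says what the replicate numbers share, and 2 pairs per experiment cannot settle whether they pair the libraries: same-numbered libraries correlated by 0.024, 0.054, 0.138 and 0.253. A replicate block changed no member's call within an experiment. It gave 2 members in PABP-bound against total RNA of U251 (TCF4 added, -1.53, edgeR adjusted p = 0.0131), lost CPLX1 in U343 (1.22, edgeR adjusted p = 0.0725), added ZNF804A between lines in RNASeq (2.81, edgeR adjusted p = 0.0235), turned NSF between lines in RIPSeq to -0.001, and lost TCF3 in U343 RNASeq (edgeR adjusted p = 0.0576).

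Over all genes, U251 RIPSeq had 170 calls, against 1102 in DESeq2, 59 with no filter, 802 with the replicate block, 2355 in the joint fit and 141 to 11670 with 1 library left out. U251 RNASeq had 7529, against 2951 in the joint fit, and U343 RNASeq 3018, against 5033 in the joint fit and 0 to 6146 with 1 library left out. Upper-quartile scaling moved the median of all genes in U251 RNASeq by 0.141 and the share of calls that were higher from 49.8% to 60.5%; in U251 RIPSeq this share was 78.2%, and 53.2% in DESeq2. In U251 RIPSeq the spread between the controls limits what its lack of calls can show.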
